A study of Mus musculus with 6 samples.

Results

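The TALE homeobox genes of the Meis, Pbx and Pknox families considered here were Meis1, Meis2, Meis3, Pbx2, Pbx3, Pbx4 and Pknox1. They were taken by gene name from a deposited table of 55487 genes, and all 7 had a row. Further TALE genes enter only through the counts of a list. The table came from RNA-seq of mouse bone marrow cells that the labels call long-term haematopoietic stem cells, the cells that sustain blood formation. All libraries carry the genotype label Mmrn1-GFP type. Of the 6 libraries, 3 were of cells called Mmrn1-low and 3 of cells called Mmrn1-high, Mmrn1 being the gene of multimerin 1, a platelet and endothelial protein. Neither the age and number of the mice nor the sorting gate and the build of the reporter allele could be taken from the labels.

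TALE stands for 3 amino acid loop extension, an insertion between the first and the second helix of the homeodomain. Pbx proteins bind DNA together with Hox proteins and with Meis or Pknox proteins, and the Meis and Pknox families compete for the same surface of Pbx. Meis1 is required for the maintenance of blood stem cells and for megakaryocyte formation, and together with Hoxa9 it drives acute leukaemia in mice.

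The coding DNA of the loop extension and of the helices that follow is shown for 4 of the genes, because it is what the families share and because such likeness decides whether reads can be assigned to 1 of them. Each stretch was read 5′ to 3′ on the coding strand from the longest principal transcript of GENCODE M21 (GRCm38), and capitals mark the 9 bases that code for the extension. All 7 genes have an intron within this stretch, so the coordinates span 2 coding exons. Those of Meis1 are chr11:18885630-18905762 on the minus strand, those of Pknox1 chr17:31602789-31603208, those of Pbx2 chr17:34594655-34594833 and those of Pbx4 chr8:69866541-69870061, the last 3 on the plus strand.
Meis1: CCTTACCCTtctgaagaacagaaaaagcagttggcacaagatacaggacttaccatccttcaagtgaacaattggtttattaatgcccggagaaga
Pknox1: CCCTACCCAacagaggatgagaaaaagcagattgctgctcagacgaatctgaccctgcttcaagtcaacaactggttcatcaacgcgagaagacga
Pbx2: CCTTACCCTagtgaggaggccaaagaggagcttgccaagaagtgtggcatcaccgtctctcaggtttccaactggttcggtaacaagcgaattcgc
Pbx4: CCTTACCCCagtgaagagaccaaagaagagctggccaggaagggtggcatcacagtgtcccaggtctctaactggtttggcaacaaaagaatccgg

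Of these 96 bases, Meis1 shared 65 with Pknox1, 54 with Pbx2 and 48 with Pbx4, while Pbx2 and Pbx4 shared 78. Over whole coding sequences, Meis1 and Meis3 were 73.0% identical in aligned bases and Pbx2 and Pbx4 71.5%. No stretch of 75 bases in an annotated transcript of these 7 genes occurred in a transcript of another of the 7. For Meis2, Meis3, Pbx3 and Pbx4 no such stretch occurred in any other annotated gene. For Meis1, 16.1% of the stretches also lay in 2 gene models within its own locus, described with the Meis1 values.

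The libraries held between 11595104 and 30909990 counts assigned to genes. Mmrn1 itself was at 5.69 ± 0.112 CPM in the Mmrn1-low libraries (SD, n = 3) and rose to 10.0 ± 1.33 CPM in the others, a log2 fold change of 0.82 ± 0.12 SE (edgeR quasi-likelihood test, Benjamini-Hochberg adjusted p = 4.85e-04). CPM here are counts scaled to a common library total with TMM factors, which correct for composition. Among markers of long-term stem cells, Slamf1 was at 1.54 ± 0.377 and 4.92 ± 0.403 CPM and Procr at 4.34 ± 0.627 and 12.4 ± 1.41 CPM in Mmrn1-low and Mmrn1-high cells. Flt3, which such cells lack in common gates, was at 156 ± 1.38 and 546 ± 4.32 CPM, and Cd48, which such gates also exclude, at 97.7 ± 5.15 and 139 ± 3.35 CPM. Since no label ties a replicate to a mouse or a sort of its own, the p-values here cover the spread among these libraries only, and that spread may be technical.

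Meis1, Pbx4 and Pbx3 were higher in Mmrn1-high cells. Pbx2 and Pknox1 did not pass the threshold, and Meis3 and Meis2 were too low to be tested. In the edgeR test, 15419 genes passed the filter on low counts, among them 5 of the 7. Of these 5, 3 were called higher and 0 lower at a Benjamini-Hochberg adjusted p under 0.05. Over all genes tested, 30.7% were called higher and 30.5% lower, 61.2% in all, so a call in this comparison is common. Beside the 0 lower calls, no tested member had an unadjusted p under 0.05 for a fall, and DESeq2 and limma voom also called 0 members lower. All directions are relative to the TMM scaling. Without composition factors the log2 fold changes lay higher by 0.15 at the median, and 66.0% of calls were higher, against 50.2% with TMM.

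**Figure D1:**
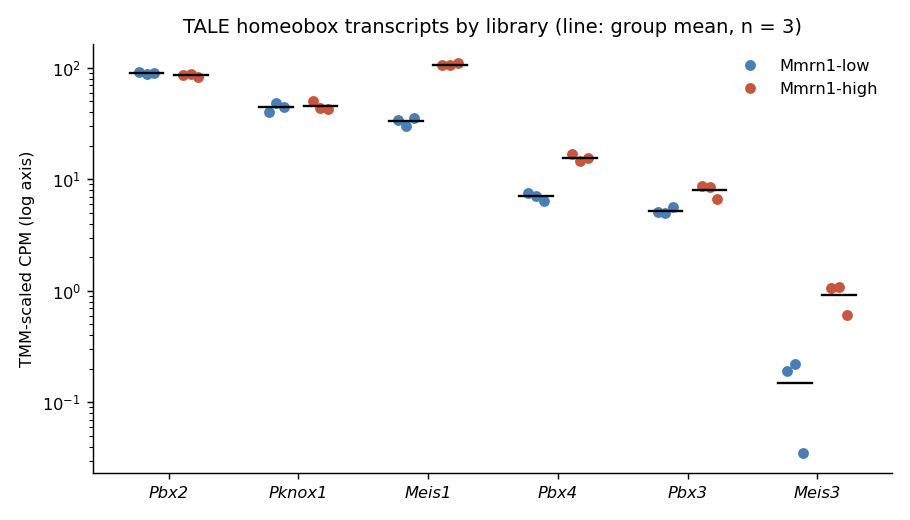
TMM-scaled CPM (log axis) of 6 genes in each of the 3 Mmrn1-low (blue) and 3 Mmrn1-high (red) libraries, with black lines at the group means. Meis2, with 1 count in all libraries, is not drawn. For Meis1, Pbx4, Pbx3 and Meis3 every Mmrn1-high point lies above every Mmrn1-low point, while the groups overlap for Pbx2 and Pknox1.

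Meis1 (ENSMUSG00000020160, GRCm38 chromosome 11, 18879817 to 19018985, minus strand) differed most among the tested members. It was at 33.9, 30.0 and 35.7 CPM in Mmrn1-low replicates 1 to 3. In Mmrn1-high replicates 1 to 3 it was at 106, 106 and 109 CPM. The groups did not overlap, which held for 67.8% of all genes tested, and the values lay close together within each group. The difference was 3.21-fold, a log2 fold change of 1.68 ± 0.07 SE (edgeR quasi-likelihood adjusted p = 3.04e-07). Of all genes tested, 96.5% had a lower log2 fold change and 75.7% a lower mean CPM than Meis1.

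Inside the Meis1 locus the table holds 5 other gene models, of which 3 passed the low-count filter, and these 3 rose. The antisense model Gm16140 rose from 0.736 ± 0.237 to 2.34 ± 0.311 CPM, a log2 fold change of 1.74 ± 0.27 SE (edgeR adjusted p = 7.48e-04). The unclassified models Gm37818 and 2900018N21Rik, on the strand of Meis1, rose by 1.66 ± 0.40 SE and 1.37 ± 0.38 SE on the log2 scale (edgeR adjusted p = 0.00927 and 0.0141). None of these 3 models passed the filter on its Mmrn1-low libraries alone. In Mmrn1-low replicates 1 to 3, Gm16140 had 12, 13 and 14 counts and Gm37818 had 17, 29 and 16. For 2900018N21Rik these counts were 9, 11 and 11. The direction of these calls is thus partly tied to the filter, and they are no separate support. The exons of Gm16140 share 896 bases and those of Gm37818 share 1029 bases with Meis1 exons. The strand setting of the counting is not stated, and for Gm37818, on the strand of Meis1, no strand setting would separate the reads. Reads in these stretches therefore cannot be assigned with certainty. With 39 Mmrn1-low and 135 Mmrn1-high counts for Gm16140 and 62 and 214 for Gm37818, against 1968 and 6354 for Meis1, these models held few of the reads of the locus. Of the 2 untested models, 2610001A08Rik had 3 Mmrn1-low and 20 Mmrn1-high counts and Gm16141 had 8 and 14.

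Meis3 (chromosome 7, 16175090 to 16186504, plus strand), known from hindbrain patterning, was barely detected. Its counts were 3, 3 and 1 in Mmrn1-low replicates 1 to 3 and 13, 35 and 9 in Mmrn1-high replicates 1 to 3. Every Mmrn1-high library was above every Mmrn1-low one in count and in CPM, and the highest was at 1.08 CPM. Summed over libraries, 7 of 61125644 counts against 57 of 56741849 counts gave a ratio of 8.77, with an exact 95% interval of 3.99 to 22.8 that covers counting error only. The gene missed the low-count filter of the edgeR test. Without that filter its edgeR adjusted p was 4.00e-04, and DESeq2 gave an adjusted p of 0.00452.

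Meis2 (chromosome 2, 115863064 to 116065839, minus strand), a gene of limb, heart and neural crest development, had 1 count, in Mmrn1-high replicate 1, and 0 in the other 5 libraries. The 0 of 61125644 counts in Mmrn1-low cells allow a level of up to 0.0491 CPM over the group. At this depth neither a level nor a difference could be given.

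The Pbx genes, whose products are the shared partner of Hox and Meis proteins, split by level. Pbx2 (chromosome 17, 34591266 to 34597400, plus strand), a broadly expressed family member, was at 92.5, 88.0 and 89.7 CPM in Mmrn1-low replicates 1 to 3. It was at 85.9, 88.3 and 83.5 CPM in Mmrn1-high replicates 1 to 3. The ranges met only at replicate 2 of either group, and the groups overlapped. The log2 fold change was −0.068, with a 95% interval from −0.16 to 0.024 (edgeR quasi-likelihood adjusted p = 0.175), and it was above 0 with library size scaling and with FPKM. Its exons share 227 bases with Gpsm3 on the same strand, a gene that was at 37.4 ± 2.65 and 54.2 ± 15.2 CPM and missed the threshold (edgeR adjusted p = 0.0725).

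Pbx4 (chromosome 8, 69832491 to 69872292, plus strand), known mainly from testis, had the largest change of the Pbx genes measured here. It was at 7.49, 7.16 and 6.41 CPM in Mmrn1-low replicates 1 to 3 and at 16.7, 14.7 and 15.5 CPM in Mmrn1-high replicates 1 to 3. The groups did not overlap, and the spread within each was small beside the gap between them. The difference was 2.23-fold, a log2 fold change of 1.16 ± 0.10 SE (edgeR adjusted p = 2.33e-05).

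Pbx3 (chromosome 2, 34171457 to 34373142, minus strand), a partner of Meis1 and Hoxa9 in leukaemia, rose less. It was at 5.08, 4.94 and 5.64 CPM in Mmrn1-low replicates 1 to 3. It was at 8.66, 8.54 and 6.63 CPM in Mmrn1-high replicates 1 to 3, the third lying nearer to the Mmrn1-low libraries than to its own group. The groups did not overlap, the difference was 1.52-fold and the log2 fold change 0.60 ± 0.13 SE (edgeR adjusted p = 0.00504).

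Pknox1 (chromosome 17, 31564734 to 31607693, plus strand), also called Prep1, encodes the TALE protein that competes with Meis proteins for Pbx. It was at 40.5, 48.2 and 44.9 CPM in Mmrn1-low replicates 1 to 3 and at 50.9, 43.5 and 42.5 CPM in Mmrn1-high replicates 1 to 3. The lowest value came from an Mmrn1-low library and the highest from an Mmrn1-high one, but the ranges overlapped over most of their extent. The log2 fold change was 0.033, with a 95% interval from −0.17 to 0.24 (edgeR adjusted p = 0.769). Leaving out Mmrn1-low replicate 1 gave −0.020, and leaving out Mmrn1-high replicate 1 gave −0.035. Within its locus, the antisense model Gm50455 shared 155 exon bases with it and had a log2 fold change of 0.36 ± 0.76 SE (edgeR adjusted p = 0.713), while Gm24970, a miRNA model, had 1 count. The sense intronic model Gm50107 shared no exon bases with Pknox1 and rose by 0.64 ± 0.19 SE on the log2 scale (edgeR adjusted p = 0.0208).

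**Figure D2:**
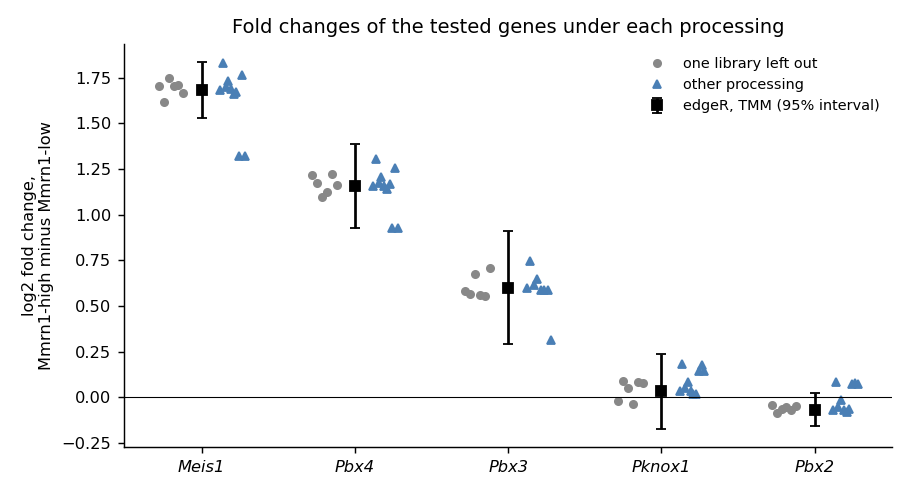
Log2 fold change (Mmrn1-high minus Mmrn1-low) of the 5 tested genes: black squares with bars give the edgeR value with its 95% interval, grey circles the fits with 1 library left out, blue triangles the fits with other processing. Meis1, Pbx4 and Pbx3 stay above 0 in every fit drawn, from 0.31 for Pbx3 to 1.83 for Meis1, while Pknox1 and Pbx2 lie on either side of 0.

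Ratios of raw counts within a library do not depend on how libraries are scaled. Meis1 counts per Pknox1 count were 0.837, 0.623 and 0.797 in Mmrn1-low replicates 1 to 3 and 2.08, 2.43 and 2.57 in Mmrn1-high replicates 1 to 3. Thus Pknox1 had more counts than Meis1 in each Mmrn1-low library and fewer in each Mmrn1-high library. Meis1 counts per Pbx2 count were 0.367, 0.341 and 0.399 in Mmrn1-low and 1.23, 1.20 and 1.31 in Mmrn1-high replicates 1 to 3. Pbx4 counts per Pbx2 count averaged 0.0779 ± 0.00557 and 0.182 ± 0.0147 (SD, n = 3). For Pbx3 per Pbx2 the means were 0.0580 ± 0.00433 and 0.0923 ± 0.0113. None of these 4 ratios overlapped between groups, whereas Pknox1 per Pbx2, at 0.495 ± 0.0547 and 0.531 ± 0.0537, did. Of single genes tested, 67.8% did not overlap in CPM, and no such share was computed for gene pairs. The ratios reuse the counts given above for each gene, so they add no separate evidence. With 3 libraries a group, an exact two-sided permutation test of a single ratio cannot go below 0.1, so none is given.

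**Figure D3:**
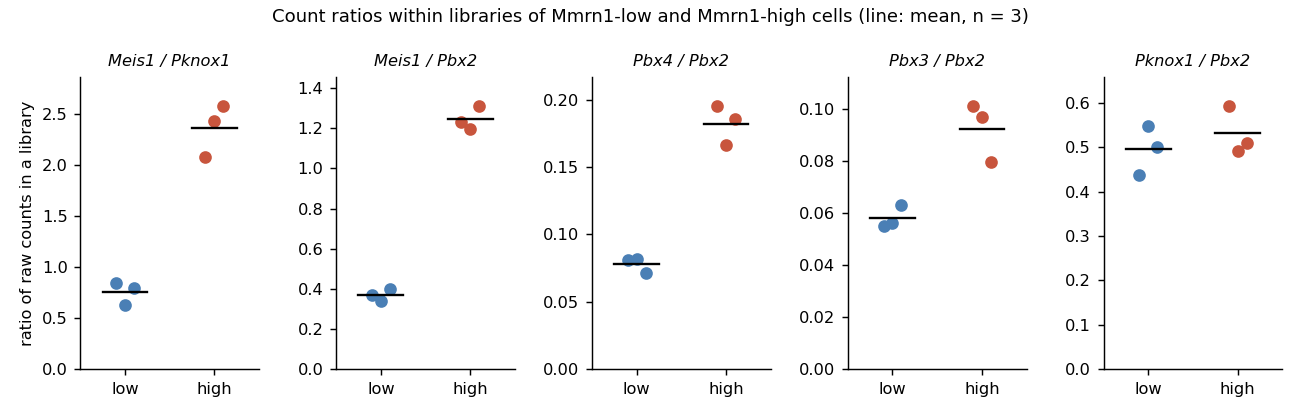
Ratios of raw counts of gene pairs within each library (vertical axes from 0), for 3 Mmrn1-low and 3 Mmrn1-high libraries with lines at the means. The Meis1 to Pknox1 ratio lies below 1 in the Mmrn1-low and above 2 in the Mmrn1-high libraries, and the ratio of Pknox1 to Pbx2 overlaps between groups.

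Levels of different genes can be set side by side only per length. In the authors' FPKM (counts scaled for gene length and library total), the order in Mmrn1-low cells was Pbx2 at 16.0 ± 0.378, Pknox1 at 3.40 ± 0.297, Pbx4 at 1.60 ± 0.121, Meis1 at 1.40 ± 0.125, Pbx3 at 0.555 ± 0.0408 and Meis3 at 0.0270 ± 0.0181. The libraries of Pbx4 and Meis1 overlapped there, and the other neighbours did not. In Mmrn1-high cells Pbx2 was at 16.9 ± 0.487 FPKM and Meis1 came next at 5.01 ± 0.0882, ahead of Pbx4 at 3.94 ± 0.277 and Pknox1 at 3.86 ± 0.403, whose libraries overlapped. Pbx3 followed at 0.937 ± 0.136 and Meis3 at 0.184 ± 0.0546 FPKM.

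The length behind the FPKM bears on this order. For each of the 7 genes, the length implied by counts and FPKM equalled the summed length of all distinct annotated exons, with overlapping exons of different transcripts counted repeatedly. For Meis1 this is 22454 bases, against 10532 bases covered by exons at least once and 3346 bases in its longest principal transcript. For Pbx2 it is 5342 bases, against 3640 covered at least once and 3068 in the principal transcript. Per kilobase of principal transcript, Meis1 stood at 9.93 ± 0.874 TMM-scaled CPM in Mmrn1-low cells, where it overlapped Pknox1 at 10.5 ± 0.900 and lay below Pbx2 at 29.4 ± 0.743. In Mmrn1-high cells Meis1 stood at 32.0 ± 0.623, above Pbx2 at 28.0 ± 0.790, with no overlap of libraries. Pknox1 at 10.7 ± 1.08 and Pbx4 at 10.0 ± 0.671 overlapped. The counts can come from any annotated exon, and the principal transcript length was chosen after seeing the data. In FPKM, Pbx2 was above Meis1 in Mmrn1-high cells too, at 16.9 against 5.01. The order of Meis1 and Pbx2 there thus depends on the length chosen. Levels per base covered at least once were not computed.

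As a share of the summed FPKM of the 7 genes, Meis1 made up 6.11% ± 0.511 in Mmrn1-low and 16.3% ± 0.749 in Mmrn1-high libraries (SD, n = 3). Pbx2 made up 69.6% ± 1.04 and 54.8% ± 1.37, and Pknox1 14.8% ± 1.42 and 12.5% ± 0.963. With the principal transcript length, a choice made after seeing the data, Meis1 held 17.6% ± 1.36 and 37.9% ± 1.46 and Pbx2 52.1% ± 0.951 and 33.2% ± 0.974. Thus the Meis1 share was higher and the Pbx2 share lower in Mmrn1-high libraries with either length, although the shares themselves differed.

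**Figure D4:**
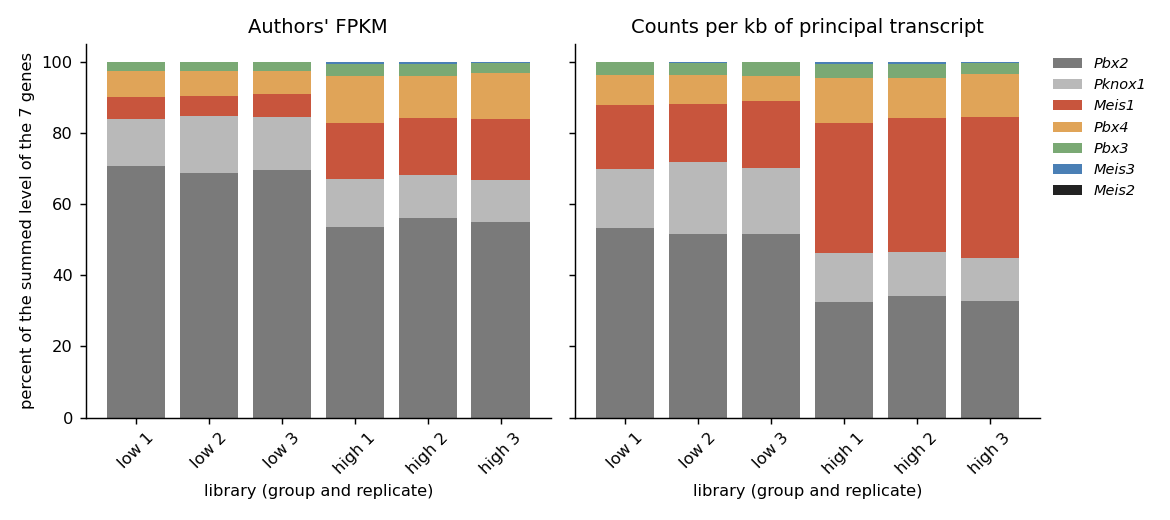
Percent of the summed level of the 7 genes held by each, in 3 Mmrn1-low and 3 Mmrn1-high libraries, by the authors' FPKM (left) and by counts per kilobase of the longest principal transcript (right). The Meis1 band widens from about 6.11% to 16.3% on the left and from 17.6% to 37.9% on the right, and the Pbx2 band narrows.

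The RefSeq promoter table (GRCm38.p6, 250 bases before to 50 after a start) holds Meis1, Meis2, Meis3, Pbx2 and Pbx4, and not Pbx3 and Pknox1. The windows of Meis1 and Pbx4, the 2 tested genes that rose most, are printed as far as the first annotated exon base, Meis1 at chr11:19018986-19019219 on the minus strand and Pbx4 at chr8:69832374-69832490 on the plus strand. Capitals mark the CCAAT box, searched on both strands.
Meis1: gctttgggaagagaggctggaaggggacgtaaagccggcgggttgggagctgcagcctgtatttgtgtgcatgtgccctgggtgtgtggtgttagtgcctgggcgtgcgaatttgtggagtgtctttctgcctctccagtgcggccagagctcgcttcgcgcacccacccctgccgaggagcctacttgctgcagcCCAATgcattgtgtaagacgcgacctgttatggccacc
Pbx4: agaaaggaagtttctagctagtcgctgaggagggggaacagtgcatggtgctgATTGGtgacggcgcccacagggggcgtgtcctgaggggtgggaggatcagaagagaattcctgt

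CCAAT occurred in the windows of Meis1, Meis2 and Pbx4 and in 37.4% of all 32851 promoter windows of 300 bases. The Meis and Pknox binding motif TGACAG, on either strand, was in none of the 5 windows and in 19.2% of all windows. The composite decamer motif of Pbx with Meis, which contains TGACAG, the Pbx and Hox motif TGATTTAT and the cyclic AMP response element TGACGTCA were in none of the 5 either, and in 0.222%, 0.977% and 1.79% of all windows. These letters describe the windows and say nothing of binding.

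The genes around the TALE factors were described from 5 lists, whose members had to pass the low-count filter to be tested. A gene of low level passes that filter more easily where 1 group is high. Of 10 other TALE genes, the 2 tested were higher: Tgif1, a repressor of TGF-beta signalling, by 0.38 ± 0.08 SE and Tgif2 by 0.65 ± 0.19 SE (edgeR adjusted p = 0.00391 and 0.0214). Irx1, Irx4 and Irx6 had no count.

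Of 32 Hox genes, whose products bind DNA with Pbx, 12 were tested, 9 were called higher and 0 lower, against 30.7% called higher over all genes, and the median log2 fold change was 0.82. Among the 9, Hoxa2, at 0.453 ± 0.204 and 2.80 ± 1.02 CPM, passed the filter only through its Mmrn1-high libraries, so its direction is tied to the filter. Hoxa9, the leukaemia partner of Meis1, rose from 35.6 ± 0.617 to 62.3 ± 1.35 CPM and Hoxa10 from 2.11 ± 0.151 to 6.65 ± 0.383 CPM. Hoxa5 changed by 1.45 ± 0.11 SE and Hoxa3 by 1.31 ± 0.11 SE. The 3 tested genes that missed the threshold were Hoxa4 (0.39 ± 0.24 SE), Hoxb4 (0.19 ± 0.09 SE) and Hoxb5 (0.67 ± 0.41 SE).

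Among 13 cofactors and binding partners of Pbx and Meis proteins, all tested, 5 were higher and 4 lower, shares near the 30.7% and 30.5% of all genes tested. The median of their log2 fold changes, −0.0038, was 0.14 with library size scaling. Pbxip1, an inhibitor that binds Pbx, rose by 0.45 ± 0.04 SE on the log2 scale, from 73.9 ± 1.05 CPM in Mmrn1-low cells. The coactivators Crebbp (0.40 ± 0.03 SE), Crtc1 (0.54 ± 0.05 SE) and Crtc3 (0.29 ± 0.05 SE) rose as well. The lower ones were the corepressor Ncor1 (−0.40 ± 0.03 SE), the non-muscle myosins Myh9 (−0.12 ± 0.03 SE) and Myh10 (−0.70 ± 0.11 SE), and the chromatin remodeller Smarca4 (−0.22 ± 0.03 SE). The 4 that missed the threshold, Hdac1, Hdac3, Ep300 and Crtc2, lay between −0.12 and 0.07.

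Of 10 genes for the MLL complex and other factors that act on Meis1 transcription, 5 were higher and 2 lower, with a median of 0.17, where 30.7% of all genes tested were called higher and 30.5% lower. Kmt2a, which encodes MLL, rose from 127 ± 1.81 to 197 ± 2.56 CPM (0.64 ± 0.03 SE), and Mllt3 (0.81 ± 0.07 SE), Elf1 (0.41 ± 0.03 SE), Psip1 (0.39 ± 0.04 SE) and Aff4 (0.22 ± 0.05 SE) rose as well. Aff1 (−0.76 ± 0.04 SE) and the histone methyltransferase Dot1l (−0.25 ± 0.05 SE) fell. Men1 (−0.19 ± 0.30 SE), Mllt1 (−0.10 ± 0.05 SE) and Creb1 (0.12 ± 0.14 SE) missed the threshold.

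Of 17 genes reported as targets of Meis1, Pbx3 or Hoxa9, 10 were higher and 3 lower, beside the same 30.7% and 30.5% over all genes, with a median of 0.90. Those with the smallest p were Flt3 (1.81 ± 0.03 SE), the platelet integrin gene Itga2b (1.49 ± 0.03 SE), Sox4 (1.43 ± 0.03 SE) and Cd34 (1.26 ± 0.03 SE). The lower genes were Myb, from 876 ± 13.2 to 602 ± 9.26 CPM, Hif1a, from 128 ± 3.93 to 70.7 ± 2.48 CPM, and Dnajc10 (−0.19 ± 0.03 SE). Thus the reported targets moved in both directions. Trib2 (0.42 ± 0.16 SE), Ccnd3 (−0.40 ± 0.70 SE), Epas1 (−0.27 ± 0.34 SE) and Pf4 (−0.06 ± 0.19 SE) missed the threshold. The negative value of Ccnd3 rests on Mmrn1-low replicate 1, at 163 CPM. Mmrn1-low replicates 2 and 3, at 37.6 and 42.2 CPM, lay below every Mmrn1-high library (48.1, 64.4 and 70.9 CPM).

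**Figure D5:**
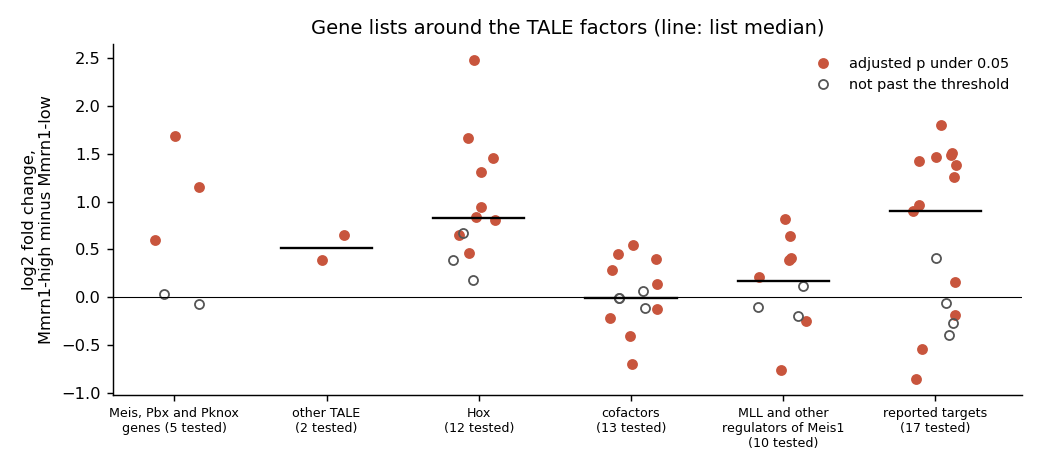
Log2 fold changes (Mmrn1-high minus Mmrn1-low) of the 5 tested Meis, Pbx and Pknox genes and of the tested genes of 5 lists, filled where the edgeR adjusted p is under 0.05, with lines at the list medians. The Hox median is 0.82 with no gene called lower, while the cofactor median lies at −0.0038 with genes called on either side.

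Markers of other cell types moved between the groups too, in a comparison where 30.7% of all genes tested were called higher and 30.5% lower. Fewer cells of a type and less RNA per cell cannot be told apart in such bulk libraries. Among cell types known to express Meis1, 5 of 6 tested megakaryocyte and platelet markers were higher and 0 lower, and the summed level of the 8 listed was at most 104 CPM in Mmrn1-low and between 258 and 265 CPM in Mmrn1-high libraries, of which Itga2b alone held 63.2 ± 0.921 and 177 ± 1.86 CPM. Of 6 tested endothelial markers 3 were higher and 2 lower, with sums of 107 to 114 and 160 to 171 CPM for the 7 listed. Pecam1 carried the higher sum, at 81.2 ± 3.49 and 147 ± 5.71 CPM, while Flt1 and Stab2 were the lower genes, with log2 fold changes of −3.71 and −2.81. Stromal markers had 3 higher and 3 lower of 6 tested, with sums of 55.9 to 58.5 and 139 to 148 CPM for the 8 listed. Pdgfrb, at 44.1 ± 1.21 and 131 ± 4.20 CPM, made up most of that sum, and Cxcl12, Col1a1 and Col1a2 were the lower genes. Granulocyte progenitor markers were lower in 6 of 6, with sums of 23298 to 24558 and 3444 to 3522 CPM, and macrophage markers in 8 of 8 tested, with sums of 149 to 152 and 18.1 to 20.4 CPM for the 9 listed. The 3 tested T and natural killer cell markers were higher, with sums of 12.1 to 14.0 and 46.0 to 48.3 CPM for the 7 listed. Lck, at 10.2 ± 0.614 and 37.5 ± 1.51 CPM, led that sum. Trbc1, at 0.277 ± 0.243 and 3.71 ± 0.268 CPM, passed the low-count filter only through its Mmrn1-high libraries. The CD3 chain genes had group means under 1 CPM and were not tested. Cd3e was at 0.561 ± 0.454 and 0.516 ± 0.226, Cd3g at 0.424 ± 0.237 and 0.454 ± 0.202 and Cd3d at 0.259 ± 0.0969 and 0.433 ± 0.299 CPM. Maturing neutrophil markers were higher in 9 of 9 and B cell markers in 5 of 6 tested, while 1 of 7 erythroid and 1 of 5 plasma cell markers were higher and 3 and 2 lower. Stab2, at 1.89 ± 0.0703 and 0.225 ± 0.195 CPM, and the macrophage marker Cd5l, at 2.17 ± 0.674 and 0.164 ± 0.103 CPM, passed the filter only through their Mmrn1-low libraries. C1qb and Col1a1 did not pass on their Mmrn1-high libraries alone, nor the B cell marker Vpreb1 on its Mmrn1-low ones. The directions of such calls are tied to the filter. Itga2b and Pf4 are both platelet markers and reported targets. No marker found in the table was at 0 in all libraries, and their part in the Meis1, Pbx3 and Pbx4 differences was not tested.

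The genes most like Meis1 were sought by the root mean square difference between log2 CPM profiles over the 6 libraries, each centred on its Mmrn1-low mean, among 10323 genes of at least 5 CPM on average. The nearest were Msrb3, at a difference of 0.0371, Shank3 at 0.0485, Rnf150 at 0.0544, Cd74 at 0.0556 and Rgl1 at 0.0641. Within a difference of 0.1 lay 34 genes. Pbx4 was nearest to Camk1 and Magef1, with 66 genes within 0.1, and Pbx3 to Fsd1l and Plekha6, with 18. For Pbx2, nearest to Elmo1 and Cabin1, 1513 genes lay within 0.1, and for Pknox1, nearest to Chml and Yod1, 207.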

How the data were processed

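The members and gene lists were chosen with earlier results of these data known. Poly-A RNA was sequenced as stranded paired-end libraries, per the labels' protocols. The deposited table gives raw counts and the authors' FPKM for each gene. CASAVA 1.8, StringTie, HISAT2 and edgeR and the build GRCm38 are listed, without roles, per the submitters' processing notes. No source used here states the strand setting of the counting. The FPKM carry no composition factor, from the length implied by counts and FPKM, which was constant across libraries. Of the table's genes, 55227 matched GENCODE M21, 99.4% of them with identical coordinates.

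The count test was that of edgeR 4.0.16, run in R 4.3.3 (robust quasi-likelihood fit, TMM factors, filterByExpr, group as the only term), with Benjamini-Hochberg adjustment over all 15419 genes tested and a threshold of 0.05. The SE was derived from the F statistic and the log2 fold change, and the 95% interval uses the fit's degrees of freedom. Intervals on counts cover counting error only. Across libraries, 3 counts equal 0.0971 to 0.259 CPM. The procedure was tested on simulated data.

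Other settings were library size alone or relative log expression factors for scaling, 5 CPM in 3 libraries or no filter, DESeq2 1.42.0, limma 3.58.1 voom, the replicate number as a block, limma on log2(FPKM + 1), with a pseudocount of 0.1 or no filter, each library left out in turn, a threshold of 0.01, and calls restricted to log2 fold changes of 1 or more in size. The principal transcript length was added after seeing the data.

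Named genes were the members, Mmrn1, up to 4 genes of each list with the smallest p, genes in a count of 5 or fewer, gene models overlapping a member, and those nearest in profile, leaving out predicted models. Slamf1, Procr and other examples were named after their values were seen, and 1 listed gene is counted but not reported here. Sequences were read with Python 3.11.15 and Biopython 1.88 from GENCODE and RefSeq files.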

Additional observations from a re-analysis of the deposited data

How the results depend on the processing

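Meis1, Pbx3 and Pbx4 kept their direction and their call in all 49 combinations of gene and alternative that gave a value, leaving aside the restriction to log2 fold changes of 1 or more in size, under which 2 members were called and Pbx3, at 0.60, was not. Pbx3 missed the filter of both filtered FPKM fits. Meis1 ranged from 1.32 to 1.83, Pbx4 from 0.93 to 1.31 and Pbx3 from 0.31 to 0.75, the lowest values being those on the log2(FPKM + 1) scale, which understates changes of low genes. Neither Pbx2 nor Pknox1 was called under any alternative. With a library left out, the ranges were 1.61 to 1.75 for Meis1, 1.10 to 1.22 for Pbx4, 0.55 to 0.71 for Pbx3, −0.085 to −0.041 for Pbx2, −0.035 to 0.090 for Pknox1 and 2.16 to 3.27 for Meis3. Meis3 passes the filter in 5 of these 6 fits and is then called, so that 3 or 4 members were higher. It passes only through its Mmrn1-high libraries, its highest Mmrn1-low library being at 0.221 CPM. The direction of that call is thus tied to the filter, and the call is no separate support. Pbx2 turned positive with library size alone (0.081), with FPKM at a pseudocount of 1 (0.075), of 0.1 (0.079) and with no FPKM filter (0.075), and the cause was not tested. None of these settings carries a composition factor, and with library size alone the log2 fold changes of all genes lay higher by 0.15 at the median. Meis3, with a log2 ratio of 3.13, was at 0.20 on the unfiltered log2(FPKM + 1) scale.

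Over all genes, the lower calls fell to 3019 and 3011 with FPKM at pseudocounts of 1 and 0.1 and to 3020 without the FPKM filter, against 4701, and the cause was not tested. Higher calls made up 50.2% with TMM and 66.0% with library size alone. That restriction left 1736 higher and 756 lower genes. With library size alone the list medians were 0.67 for other TALE genes, 0.97 for Hox genes, 0.14 for cofactors (8 higher and 2 lower), 0.32 for regulators of Meis1 transcription (1 lower) and 1.05 for reported targets.

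With the gene's span on the chromosome as its length, the Meis1 share was 1.48% and 4.71% in Mmrn1-low and Mmrn1-high libraries, that of Pbx2 90.8% and 85.7% and that of Pknox1 6.42% and 6.50%. With the principal transcript these were 17.6% and 37.9%, 52.1% and 33.2%, and 18.6% and 12.7%.

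Replicates of the same number did not deviate together (correlations of their deviations across genes of 0.0426, −0.0785 and 0.0286). Those of different numbers ranged from −0.0927 to 0.0715, so no pairing by number was seen. Correlations this near 0 cannot tell whether libraries shared a mouse or a sort, which the labels do not state. With the replicate number as a block, 4476 genes were higher and 4447 lower, Meis1 was at 1.69, Pbx4 at 1.16 and Pbx3 at 0.59, and 3 members were called. Depth limits Meis2 and Meis3, at 1 and 64 counts in all.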
